A study of Mus musculus with 4 samples.

Results

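T cells, natural killer (NK) cells and B cells are the lymphocytes of the liver, and 37 genes that mark them were followed on 4 whole-liver expression arrays. The genes were a fixed list of lymphocyte symbols, chosen with earlier results of these data known. They were split into 18 T cell genes, 13 genes of NK and other cytotoxic cells, and 6 B cell genes. All 37 had a usable probe, out of 22047 genes with one, and the brightest probe on average stood for a gene with several. The 4 arrays, 1 per group, held RNA from mice of 4 kinds. The first was aging diabetic mice given astragalus polysaccharide (APS), sugar polymers extracted from Astragalus root, together with metformin, a biguanide that lowers blood glucose. The second was aging diabetic mice given metformin alone, the third was aging diabetic mice, for which the labels name the disease modelling and no drug, and the last was natural aging mice without drug treatment. All were male and fasted before the liver was frozen. The labels give neither the strain, the age and the way diabetes was induced, nor whether 1 mouse or a pool gave each RNA, and they do not say what the 60 days in the sample titles count.

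T cells carry an antigen receptor whose signal passes through the CD3 chains and the kinases Lck and Zap70. NK cells carry no such receptor and kill through activating receptors of the killer-lectin family and the granules that hold perforin and granzymes; cytotoxic T cells use the same granules. B cells carry surface antibody, which signals through Cd79a and Cd79b. Mouse liver is known for many NK, NKT and T cells in its sinusoids, and it holds B cells as well.

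With 1 array per group there was no replicate and no test was possible, so every difference below is between 2 arrays. In whole-liver RNA, fewer cells of a type and less RNA per cell cannot be told apart. Levels are log2 of the signal relative to the 75th percentile of that array, so 0 is the 75th percentile and each unit is a factor of 2. They are set side by side for 1 gene only, since probes of different genes differ in brightness. A gene was compared between 2 arrays if at least 1 of them was well above background, and is called higher or lower here if the log2 values were at least 1 unit (2-fold) apart. If the other array was dim, the difference is a lower bound and is written as at least N-fold. The error given with a difference comes from the image analysis of both spots and leaves out the spread between animals. Between 33668 and 37402 of 59305 spots on each of the 4 arrays were well above background.

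The metformin array was the highest of the 4 for most lymphocyte genes, and the aging diabetic array was often the lowest. Of the 37 genes, 33 were well above background on at least 1 array. All 33 were so on the metformin array, against 28 on the APS plus metformin, 26 on the aging diabetic and 29 on the natural aging array. Cd27, Gzmk, Xcl1 and Ms4a1 passed only through the metformin array. The metformin array held the highest value for 24 of the 33, whereas it did so for 30.3% of all 15978 genes detected on any array. The aging diabetic array held the highest value for none of them and the lowest for 17, against 20.4% of all genes in both cases. The other 4 genes, Ctla4 among the T cell genes, Klrb1c among the NK cell genes, and Cd79a and Blk among the B cell genes, were dim on every array.

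**Figure D1:**
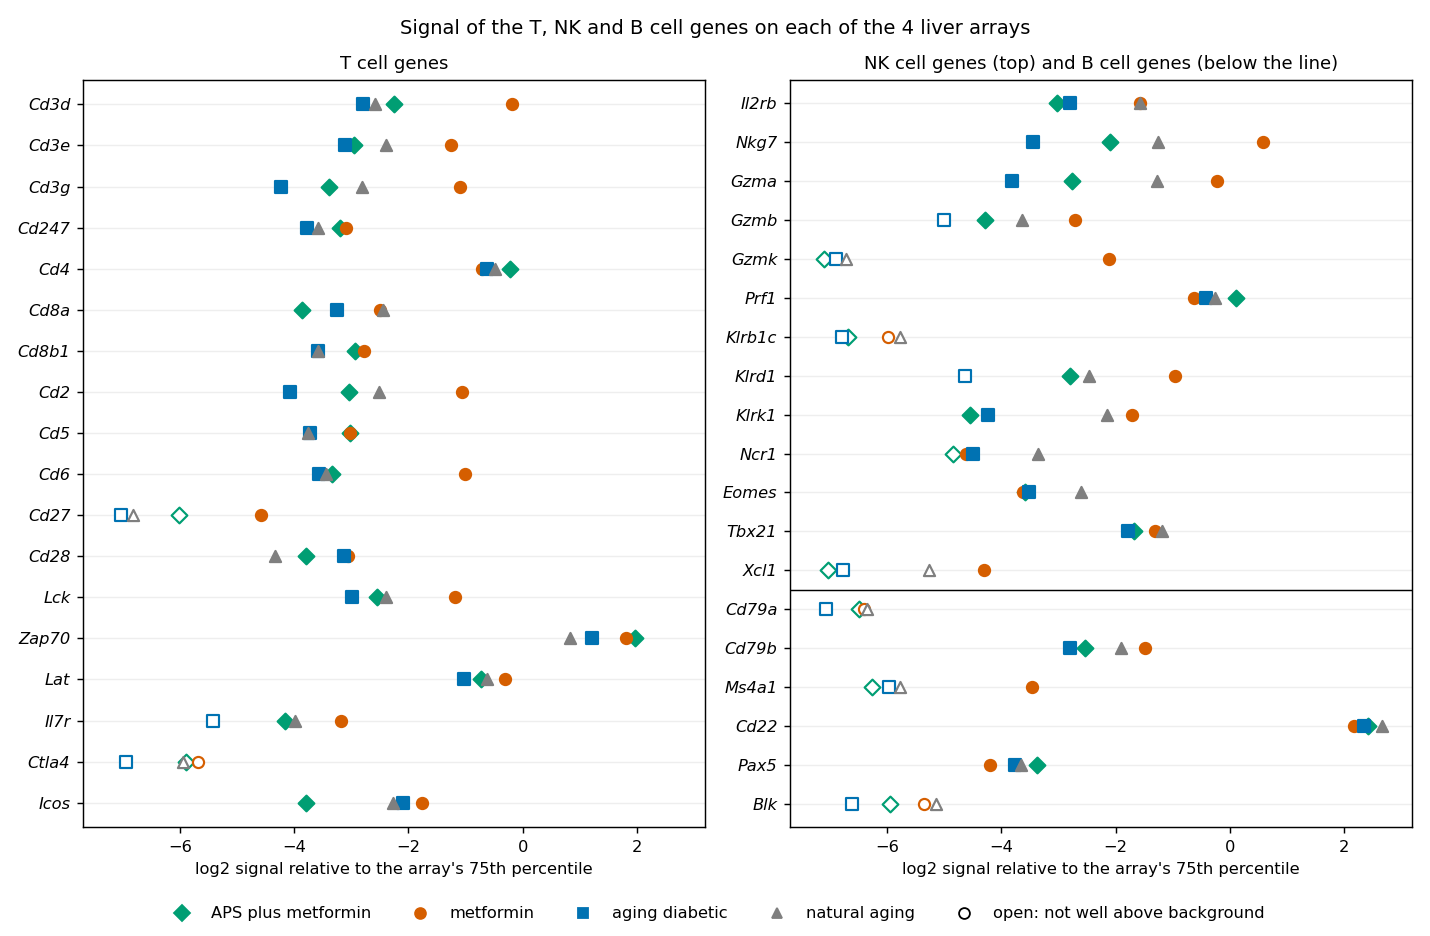
Signal of each gene on each array, as log2 relative to the array's 75th percentile, with T cell genes on the left and NK and B cell genes on the right; open symbols were not well above background. The metformin array (circles) lies to the right of the other 3 for 24 of the 33 detected genes. Cd4, Prf1 and Cd22 are among the genes that stayed within 2-fold by the brightest probe, which is the one plotted.

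The promoters of 6 of these genes are shown because they frame the range of what was seen. Nkg7, Gzma, Cd3g, Cd3d and Klrk1 had the largest measured differences between the metformin and the aging diabetic array among the 26 genes that RefSeq's promoter table holds, and Prf1 is a granule gene that stayed within 2-fold. Each stretch runs from 250 bases before to 50 bases after the annotated start, on build GRCm38.p6, with capitals for 3 short motifs on either strand: TCACAC or GTGTGA (the core bound by T-box factors such as Tbx21 and Eomes), TGTGGT or ACCACA (Runx factors) and AGGAAG or CTTCCT (Ets factors).
Nkg7 promoter, chr7:43436888-43437187, plus strand: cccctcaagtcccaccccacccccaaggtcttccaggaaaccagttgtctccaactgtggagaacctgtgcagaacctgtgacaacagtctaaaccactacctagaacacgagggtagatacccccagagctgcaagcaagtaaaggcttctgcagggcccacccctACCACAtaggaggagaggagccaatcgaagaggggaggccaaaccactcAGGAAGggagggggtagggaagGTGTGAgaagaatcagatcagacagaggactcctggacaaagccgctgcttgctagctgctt
Gzma promoter, chr13:113100932-113101231, minus strand: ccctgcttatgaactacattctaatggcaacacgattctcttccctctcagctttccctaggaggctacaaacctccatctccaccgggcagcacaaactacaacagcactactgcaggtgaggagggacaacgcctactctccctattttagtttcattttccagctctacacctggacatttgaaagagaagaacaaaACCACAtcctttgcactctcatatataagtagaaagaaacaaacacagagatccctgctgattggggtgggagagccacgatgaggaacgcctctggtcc
Cd3g promoter, chr9:44980382-44980681, minus strand: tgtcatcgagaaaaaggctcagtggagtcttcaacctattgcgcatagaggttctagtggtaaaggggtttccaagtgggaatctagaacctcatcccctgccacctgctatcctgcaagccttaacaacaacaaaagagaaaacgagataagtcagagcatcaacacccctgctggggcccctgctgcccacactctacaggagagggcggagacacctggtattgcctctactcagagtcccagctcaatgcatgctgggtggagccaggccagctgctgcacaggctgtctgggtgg
Cd3d promoter, chr9:44981536-44981835, plus strand: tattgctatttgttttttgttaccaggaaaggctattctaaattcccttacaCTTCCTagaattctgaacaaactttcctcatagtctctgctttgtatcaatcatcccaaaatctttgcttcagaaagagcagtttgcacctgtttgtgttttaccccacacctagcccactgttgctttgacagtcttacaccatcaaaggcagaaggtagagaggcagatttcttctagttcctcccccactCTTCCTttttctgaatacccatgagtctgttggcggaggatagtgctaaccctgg
Klrk1 promoter, chr6:129623815-129624114, minus strand: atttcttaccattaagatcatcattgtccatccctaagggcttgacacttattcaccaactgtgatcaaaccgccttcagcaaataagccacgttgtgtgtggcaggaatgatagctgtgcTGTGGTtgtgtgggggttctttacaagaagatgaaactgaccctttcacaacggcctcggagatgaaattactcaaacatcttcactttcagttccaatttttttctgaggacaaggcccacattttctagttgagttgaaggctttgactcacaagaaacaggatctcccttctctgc
Prf1 promoter, chr10:61297586-61297885, plus strand: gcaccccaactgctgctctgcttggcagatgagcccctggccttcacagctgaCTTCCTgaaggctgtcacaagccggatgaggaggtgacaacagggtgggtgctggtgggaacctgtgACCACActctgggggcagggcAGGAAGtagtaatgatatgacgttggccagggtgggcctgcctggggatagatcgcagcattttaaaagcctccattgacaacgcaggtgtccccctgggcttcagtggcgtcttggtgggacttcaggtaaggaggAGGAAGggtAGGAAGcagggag
Nkg7 had 1 match to each of the 3 motifs, Gzma and Klrk1 had 1 Runx match each, Cd3d had 2 Ets matches and Cd3g had none. Prf1, which stayed within 2-fold, had 1 Runx and 4 Ets matches. Over the 30 promoters of the 26 genes, 33.3% held the T-box, 43.3% the Runx and 56.7% the Ets motif, against 14.5%, 16.8% and 35.4% of all 32851 promoters of the same length. A match is a run of letters and not a measured binding site.

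Among T cell genes, the chains of the CD3 complex were high on the metformin array alone. Cd3d stood at -2.25 on the APS plus metformin, -0.19 on the metformin, -2.79 on the aging diabetic and -2.58 on the natural aging array. Cd3g stood at -3.38, -1.09, -4.23 and -2.82 on the arrays in that order. Cd3e stood at -2.96, -1.25, -3.10 and -2.39. For all 3 chains the metformin array was apart from the other 3 arrays, which lay within 1.41 log2 of each other for Cd3g and closer for the other chains. Metformin over aging diabetic was 6.07-fold for Cd3d (error 0.19 log2), 8.80-fold for Cd3g (0.28) and 3.60-fold for Cd3e (0.20). APS plus metformin was 4.17-fold, 4.90-fold and 3.26-fold lower than metformin for the same 3 chains. The second probe of Cd3d gave 6.43-fold and 3.88-fold for these 2 differences, while the second probe of Cd3e was dim on every array. Cd247, the zeta chain that NK cells also use, moved less, with -3.20 on the APS plus metformin, -3.10 on the metformin, -3.78 on the aging diabetic and -3.58 on the natural aging array. Its other probes were dim on every array.

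Adhesion and signalling genes of T cells divided into those with the CD3 pattern and those without it. Cd2, an adhesion receptor of T and NK cells, stood at -3.05 on the APS plus metformin, -1.06 on the metformin, -4.07 on the aging diabetic and -2.51 on the natural aging array. It was 8.07-fold higher on the metformin than on the aging diabetic array (error 0.25) and 2.94-fold lower on the aging diabetic than on the natural aging array. Cd6, a surface receptor that tunes T cell activation, stood at -3.33, -1.01, -3.56 and -3.45 in the same order of arrays, so only the metformin array differed by 2-fold from any other. The kinase gene Lck, which starts the receptor signal, stood at -2.54, -1.19, -2.99 and -2.39, and was 3.49-fold higher on the metformin than on the aging diabetic array. Its second probe was well above background on the metformin array alone (-4.79), too near the floor for a fold to be read. Il7r, the receptor for the survival factor interleukin 7, stood at -4.16, -3.17, -5.43 and -4.00, with a dim aging diabetic spot, and was at least 2.99-fold higher on the metformin array.

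Another group of T cell genes stayed within 2-fold between the metformin and the aging diabetic array. Of these, Cd5, Lat, Cd8a, Cd8b1 and Zap70 were higher on the metformin array, by 1.51-fold (Zap70) to 1.75-fold (Cd8b1). Cd4, the co-receptor of helper T cells, stood at -0.23 on the APS plus metformin, -0.71 on the metformin, -0.62 on the aging diabetic and -0.49 on the natural aging array. Its second probe stood at -2.27, -2.39, -1.84 and -1.32 in the same order of arrays. By that probe natural aging was highest and metformin 2.11-fold below it, and APS plus metformin was below aging diabetic (-0.44 log2, against 0.40 by the brighter probe) and natural aging (-0.96, against 0.26), so no direction can be given for Cd4 with APS plus metformin in those pairs. In mouse liver it is not a marker of T cells alone, since dendritic cells can also express it. Cd5, a brake on receptor signals, stood at -3.03, -3.02, -3.72 and -3.76, and the adaptor gene Lat at -0.72, -0.31, -1.03 and -0.63. Cd8a and Cd8b1, the chains of the killer T cell co-receptor, did not run together. Cd8a stood at -3.86, -2.50, -3.26 and -2.44 and Cd8b1 at -2.94, -2.78, -3.59 and -3.59, so that Cd8a was 2.67-fold lower on the APS plus metformin than on the natural aging array, while Cd8b1 was 1.56-fold higher. The second probe of Cd8a was dim on every array. Zap70 went its own way, at 1.96, 1.81, 1.22 and 0.82. It was highest with APS plus metformin, 2.20-fold above natural aging, and its second probe gave 2.07-fold.

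The co-stimulatory receptors Cd28 and Icos were highest on the metformin array by a small margin, with another array apart from the rest. Cd28, which supplies the second signal for T cell activation, stood at -3.80 on the APS plus metformin, -3.07 on the metformin, -3.13 on the aging diabetic and -4.33 on the natural aging array. It was the 1 listed gene at least 2-fold higher in aging diabetic than in natural aging liver, by 2.30-fold (error 0.32). Icos, an inducible receptor of activated T cells, stood at -3.79, -1.75, -2.09 and -2.27. It was low on the APS plus metformin array alone, 3.24-fold below aging diabetic (error 0.23) and 4.09-fold below metformin. Cd27, a receptor of the tumour necrosis factor family, was well above background only on the metformin array, at -4.58, too close to the floor of the other arrays for a fold of 2 to be read.

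NK cell genes had the lowest median of the 3 sets in aging diabetic against natural aging liver, led by Nkg7 and Gzma. Nkg7, a granule membrane protein of cytotoxic lymphocytes, stood at -2.09 on the APS plus metformin, 0.58 on the metformin, -3.44 on the aging diabetic and -1.25 on the natural aging array. Gzma, the granule protease granzyme A, stood at -2.76, -0.23, -3.82 and -1.28 in that order. The 4 arrays had the same order for both genes, metformin highest, then natural aging, APS plus metformin and aging diabetic. Aging diabetic was 4.56-fold lower than natural aging for Nkg7 (error 0.21) and 5.81-fold lower for Gzma (0.23). Metformin was above natural aging by 3.56-fold and 2.08-fold. APS plus metformin was above aging diabetic by 2.55-fold and 2.09-fold, and below metformin by 6.37-fold and 5.78-fold.

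The killer-lectin receptors Klrd1 and Klrk1 and the granzymes Gzmb and Gzmk were also highest on the metformin array, with differing orders of the other 3. Klrd1 (CD94), which pairs with NKG2 proteins, stood at -2.80 on the APS plus metformin, -0.97 on the metformin, -4.63 (dim) on the aging diabetic and -2.46 on the natural aging array. It was at least 12.7-fold higher with metformin and at least 3.55-fold higher with APS plus metformin than in aging diabetic liver. Klrk1 (NKG2D), an activating receptor for stress ligands, stood at -4.55, -1.71, -4.23 and -2.15, so that the APS plus metformin array was as low as the aging diabetic one and 5.29-fold below natural aging (error 0.30). Gzmb stood at -4.29, -2.72, -5.01 (dim) and -3.64. Gzmk, a granzyme of memory-type T cells and some NK cells, was well above background on the metformin array alone, at -2.12 against -7.10, -6.90 and -6.72 on the APS plus metformin, aging diabetic and natural aging arrays, and was at least 6.22-fold higher there than in aging diabetic liver. Il2rb, the receptor chain shared by interleukins 2 and 15, stood at -3.02, -1.57, -2.80 and -1.58, with metformin and natural aging alike and the other arrays lower.

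Some genes of the cytotoxic set did not follow. Prf1, which encodes the pore-forming protein perforin, stood at 0.11 on the APS plus metformin, -0.63 on the metformin, -0.42 on the aging diabetic and -0.25 on the natural aging array. Its 4 values lay within 0.73 log2, and the APS plus metformin array was the highest. Tbx21 (T-bet), a T-box factor of cytotoxic and helper lymphocytes, stood at -1.67, -1.31, -1.78 and -1.19. Ncr1 (NKp46), the receptor most particular to NK cells among those listed, stood at -4.84 (dim), -4.61, -4.50 and -3.35 and was highest in natural aging. It was 2.22-fold lower in aging diabetic (error 0.34) and 2.40-fold lower in metformin-treated than in natural aging liver, so it was not high on the metformin array. Xcl1, a chemokine of activated NK and T cells, was detected on the metformin array alone, at -4.31, too near the floor for a fold of 2.

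The probes of Eomes, the T-box factor of mature NK cells and memory T cells, disagreed. The brighter one stood at -3.58 on the APS plus metformin, -3.63 on the metformin, -3.51 on the aging diabetic and -2.61 on the natural aging array. The other stood at -5.08, -2.03, -6.19 and -6.02 and was well above background on the metformin array alone, at least 6.62-fold above aging diabetic. By the brighter probe Eomes was 2.02-fold lower with metformin than in natural aging, and by the other probe at least 5.62-fold higher, so no direction can be given for Eomes in that pair. Which probe reads the main transcript was not tested.

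B cell genes were the least visible. Cd79a, the B cell receptor chain that defines the lineage, and Blk, a B cell kinase, were dim on all 4 arrays. Ms4a1 (CD20) was detected on the metformin array alone, at -3.46 against -6.27, -5.96 and -5.77 on the APS plus metformin, aging diabetic and natural aging arrays, and was at least 2.45-fold above aging diabetic there. Cd79b stood at -2.53 on the APS plus metformin, -1.49 on the metformin, -2.80 on the aging diabetic and -1.90 on the natural aging array, and was 2.49-fold higher with metformin than in aging diabetic liver (error 0.19). Pax5, the B cell identity factor, went the other way, at -3.38, -4.19, -3.76 and -3.65, with no pair of arrays 2-fold apart.

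The B cell inhibitory receptor gene Cd22 depended on the probe. Its brightest probe hardly moved, at 2.41 on the APS plus metformin, 2.17 on the metformin, 2.35 on the aging diabetic and 2.66 on the natural aging array. The next probe, of a different transcript accession, stood at -4.34, -2.75, -4.24 and -3.29. By that probe metformin was 2.81-fold above aging diabetic and APS plus metformin 3.02-fold below metformin. The last Cd22 probe was dim throughout. With Cd79a and Blk dim on all arrays, Ms4a1 detected on 1 array and Cd22 split between probes, the label of B cells rested on few readings.

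Counted over the pairs of arrays, aging diabetic liver had lower NK cell genes than natural aging liver, with fewer T cell and no B cell genes past 2-fold. At least 2-fold lower were 7 of 10 NK cell genes compared, 2 of 16 T cell genes and 0 of 3 B cell genes, where 6.09% of all 14453 genes compared were lower. The 1 T cell gene that was higher, Cd28, stands beside 8.20% of all genes. The median log2 difference was -1.19 for NK, -0.20 for T and -0.32 for B cell genes, and -0.04 over all genes compared. All 10 NK cell genes had a negative difference, down to -2.54 for Gzma. The 2 T cell genes that were lower were Cd3g and Cd2. With normexp background correction, which shrinks differences of weak spots, 4 of 10 NK and 1 of 16 T cell genes were lower and none was higher, as Cd28 came to 0.80, Cd3g to -0.96, Il2rb to -0.98, Gzmb to -0.80 and Ncr1 to -0.79 log2.

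With metformin, some lymphocyte genes of each set were higher than in aging diabetic liver and none was 2-fold lower. At least 2-fold higher were 7 of 17 T, 7 of 12 NK and 2 of 4 B cell genes, against 11.9% of all 15562 genes compared; 3.53% of all genes were lower. The medians were 0.76 for T, 1.64 for NK and 0.56 for B cell genes, against a median over all genes of less than 0.01 in size. The difference was positive for 16 of 17 T, 9 of 12 NK and 2 of 4 B cell genes, bounds included. Without bounds the NK median was 0.85 and the B median -0.17, since Gzmb, Gzmk, Klrd1, Xcl1 and Ms4a1 were too dim in aging diabetic liver to be measured there. Those genes, Cd27 and Il7r were compared only because the metformin array was above background, so none could be called lower. With only genes past the background flag on both arrays, 4 of 8 NK and 1 of 3 B cell genes were higher, against 9.82% of all 13640 genes. The T cell genes that were higher were Cd3d, Cd3e, Cd3g, Cd2, Cd6, Lck and Il7r, the NK cell genes were Nkg7, Gzma, Gzmb, Gzmk, Klrd1, Klrk1 and Il2rb, and the B cell genes were Cd79b and Ms4a1. This comparison shares the aging diabetic array with the one before, so the counts of both are not independent. With normexp correction Il2rb (0.99) and Cd79b (just under 1) missed the threshold.

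**Figure D2:**
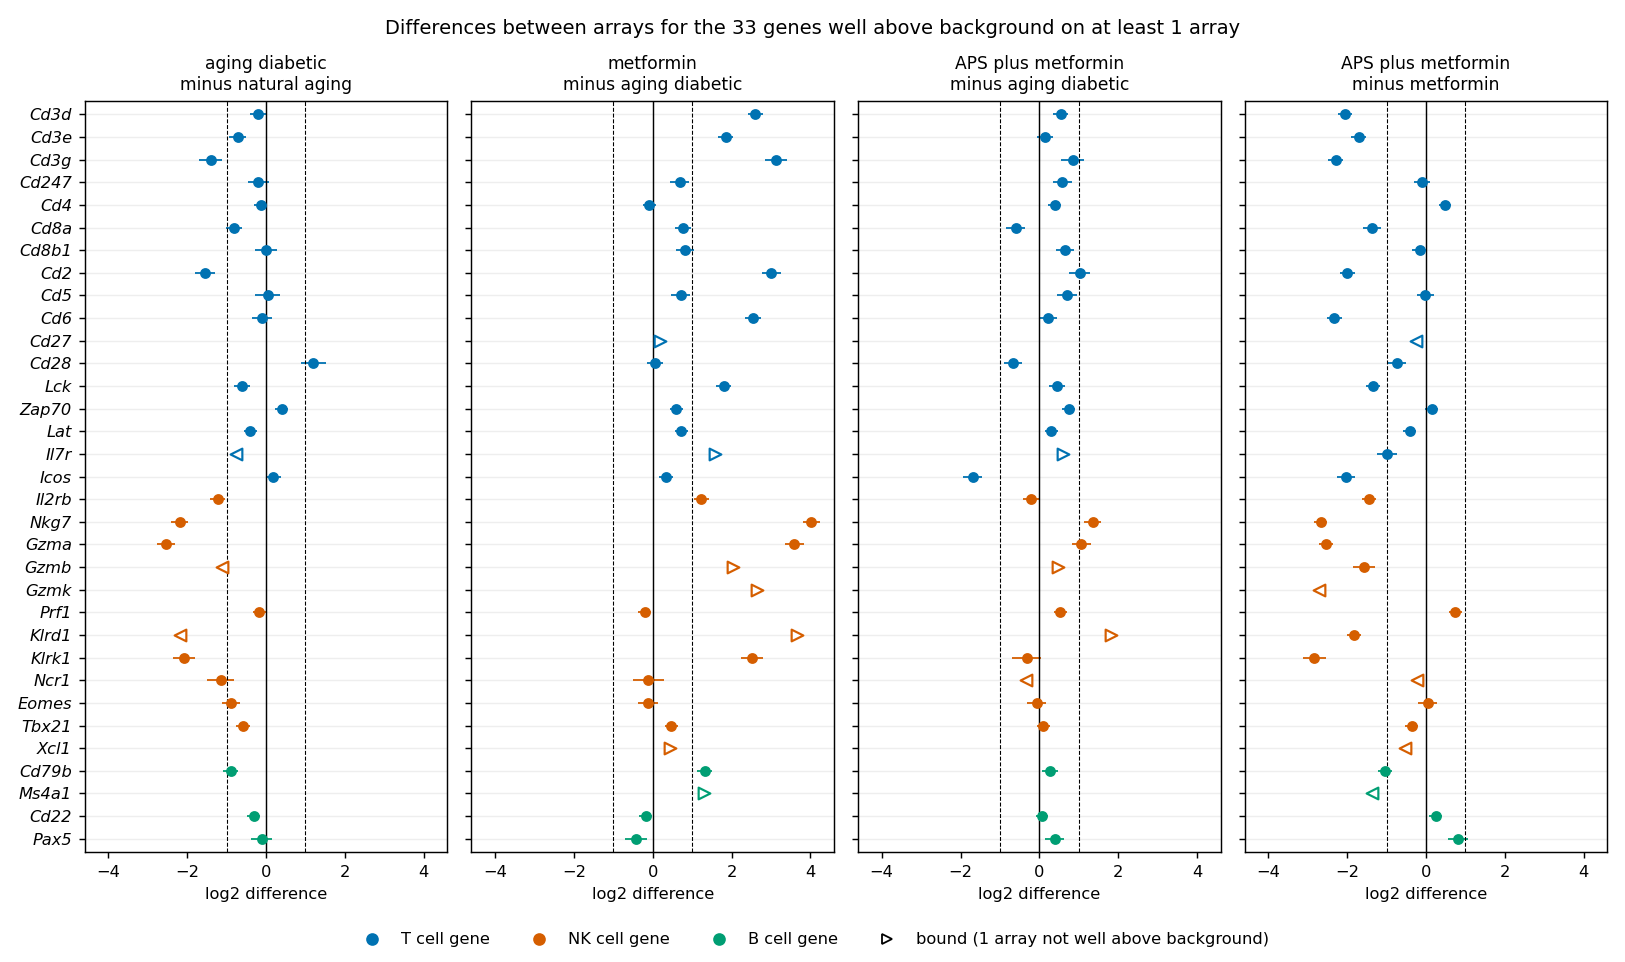
Log2 difference of each of the 33 detected genes in 4 pairs of arrays; points carry the error of both spots, open triangles are bounds and dashed lines mark 2-fold. No gene lies below -1 for metformin minus aging diabetic, and none lies above 1 for APS plus metformin minus metformin.

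Between APS plus metformin and aging diabetic liver, 24 of 29 genes compared were within 2-fold, as were 22 of 29 between APS plus metformin and natural aging liver. Of the genes compared with aging diabetic, 1 of 16 T, 3 of 10 NK and 0 of 3 B cell genes were at least 2-fold higher, beside 4.38% of all 14734 genes, and Icos was the 1 gene that was lower, beside 6.90%. The 4 higher genes were Cd2 (2.03-fold, error 0.26), Nkg7, Gzma and Klrd1. Cd2 missed the threshold with quantile normalization (0.999 log2) and with normexp correction (0.54), and Gzma with the second of these (0.71). The medians were 0.50 for T, 0.29 for NK and 0.27 for B cell genes, against 0.02 over all genes, so small positive differences were common without passing 2-fold.

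Set against metformin alone, APS plus metformin had some lower lymphocyte genes in each set. At least 2-fold lower were 8 of 17 T, 7 of 12 NK and 2 of 4 B cell genes, where 12.4% of all 15599 genes compared were lower, and none was higher, where 2.37% were. The medians were -0.99, -1.51 and -0.40, against -0.03 over all genes. Klrk1 had the largest measured difference, 7.15-fold, with an error of 0.29 log2. The 8 T cell genes were Cd3d, Cd3e, Cd3g, Cd2, Cd6, Cd8a, Lck and Icos. This comparison shares the metformin array with that of metformin against aging diabetic liver. Cd27, Gzmk, Xcl1, Ncr1 and Ms4a1 were compared only because the metformin array was above background, so none could be called higher. Without bounds the medians were -1.17 for T, -1.57 for NK and 0.24 for B cell genes. Cd79b, at 2.06-fold, missed the threshold with quantile normalization (-0.97 log2), normexp correction (-0.82) and the authors' series values (-0.97), and Lck did so as the mean over its probes (-0.74).

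Compared with natural aging liver, the treated arrays differed from each other. With metformin alone 7 of 17 T, 4 of 12 NK and 1 of 4 B cell genes were at least 2-fold higher, beside 13.0% of all 15548 genes, and 2 NK cell genes (Ncr1 and Eomes by its brighter probe) were lower, beside 4.71%. The T cell median was 0.82, led by Cd6 (5.42-fold) and Cd3d (5.24-fold), and the NK median was 0.32. Cd27, Gzmk, Xcl1 and Ms4a1 were compared there only because the metformin array was above background. With only genes past the background flag on both arrays, 0 of 3 B cell genes were higher. With APS plus metformin 1 of 16 T cell genes (Zap70) was higher, beside 6.14% of all 14634 genes, while 2 T and 4 NK cell genes were lower, beside 6.68%. The medians were 0.01 for T, -0.90 for NK and -0.25 for B cell genes. In both pairs the NK median lay below the T median. Between metformin and natural aging, Gzma came to 0.986, 0.965 and 0.996 log2 with quantile normalization, normexp correction and the authors' series values, just under 2-fold, and Ms4a1 to 0.83, 0.91 and 0.82. With normexp correction Cd28 (0.92), Ncr1 (-0.83) and Eomes (-0.86) were within 2-fold in that pair, as was Lck as the mean over its probes (0.86). Zap70, at 0.99, passed 2-fold there with quantile normalization and with the authors' series values (1.12 log2 with the series values). With normexp correction Icos (-0.98) was within 2-fold for APS plus metformin against natural aging.

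**Figure D3:**
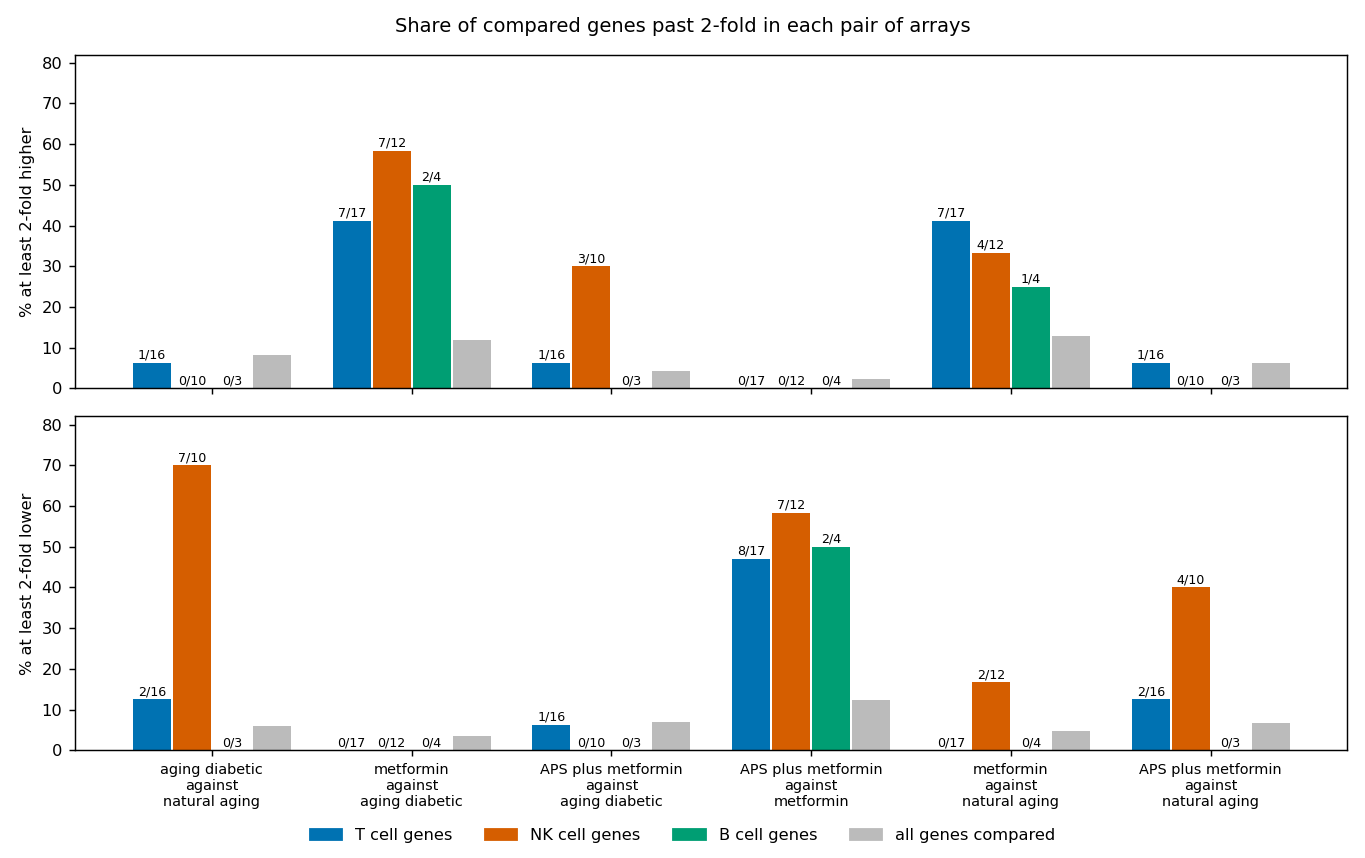
Percent of compared genes at least 2-fold higher (top) or lower (bottom) in each pair of arrays, for T, NK and B cell genes with the counts above the bars and for all genes compared in grey. NK cell genes reached 7 of 10 lower for aging diabetic against natural aging, and the bars of all 3 sets stood above the grey bar in the top panel for metformin against aging diabetic.

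Members that lie next to each other in the genome did not always run together. Cd3g, Cd3d and Cd3e are adjacent on chromosome 9 with no other protein-coding gene between them, and all 3 were high on the metformin array. Gzma and Gzmk are adjacent on chromosome 13 and were both highest on the metformin array. Klrd1 and Klrk1, adjacent in the NK gene complex on chromosome 6, shared a high metformin value but not their level with APS plus metformin. Cd5 and Cd6 are adjacent on chromosome 19, and metformin over aging diabetic was 1.63-fold for Cd5 and 5.84-fold for Cd6. Cd28, Ctla4 and Icos follow each other on chromosome 1, where Cd28 was lowest in natural aging, Icos was lowest with APS plus metformin and Ctla4 was dim.

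Further genes of the same cells were also mostly higher than lower with metformin. Of 26 further T cell genes compared between metformin and aging diabetic liver, 18 were at least 2-fold higher and 1 lower, with a median of 1.44, where 11.9% of all genes compared were higher and 3.53% lower. Cxcr6, a homing receptor of liver-resident T and NKT cells, was 5.53-fold higher. The exception was Lag3, an inhibitory receptor, which stood at -3.91 on the APS plus metformin, -2.79 on the metformin, -0.26 on the aging diabetic and -3.20 on the natural aging array and was 5.77-fold lower with metformin. Of 18 further NK cell genes, 5 were higher and none lower (median 0.68), led by Ccl5, a chemokine of cytotoxic lymphocytes, at 10.2-fold. Of 18 further B cell genes, 7 were higher and none lower (median 0.79), among them Pou2af1, a B cell co-activator, at 2.53-fold. Bounds made up 14 of the T, 6 of the NK and 7 of the B cell genes. These were compared only because the metformin array was above background. Without bounds the medians were 1.26, 0.75 and 0.60. With APS plus metformin against metformin, 19 of 26, 9 of 18 and 8 of 18 further genes were lower and none was higher. Over all genes 12.4% were lower and 2.37% higher. Bounds were 10, 6 and 6 of the further genes compared in that pair.

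In aging diabetic against natural aging liver, the further NK cell genes were lower and higher in equal number. Of 12 compared, 2 were lower and 2 higher, with a median of -0.20, where 6.09% of all genes compared were lower and 8.20% higher. Klre1, a killer-lectin receptor, was 3.35-fold lower, and Klra8, a receptor of the Ly49 family, was 2.86-fold higher. Of 14 further T cell genes 4 were lower (28.6%) and 1 higher, with a median of -0.62, so the share that was lower exceeded that over all genes. Of 12 further B cell genes 1 was lower and 1 higher, near the share over all genes. Of 6 plasma cell genes compared, 2 were lower and 1 higher (median -0.37). Jchain, which joins secreted antibodies in plasma cells, stood at -1.19 on the APS plus metformin, -1.54 on the metformin, -2.54 on the aging diabetic and -0.26 on the natural aging array. Derl3, an endoplasmic reticulum protein of secretory cells on the same list, went the other way, at -4.14, -2.60, 1.78 and -1.45, and was 9.35-fold higher in aging diabetic than in natural aging liver. Of 12 attractants and cytokines of lymphocytes, 4 were lower and 1 higher, with Tnfsf13b, a B cell survival factor, 6.17-fold and Ccl19, which draws T cells, 4.20-fold lower.

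Some markers of other cells differed between the same arrays. Of 16 pan-leukocyte genes, 4 were at least 2-fold lower in aging diabetic than in natural aging liver, 9 were higher with metformin than in aging diabetic liver (median 1.18), and 11 were lower with APS plus metformin than with metformin (median -1.24). Over all genes compared these shares were 6.09%, 11.9% and 12.4%. Ptprc, which encodes the CD45 antigen of all leukocytes, stood at -1.18 on the APS plus metformin, 0.56 on the metformin, -0.95 on the aging diabetic and 0.02 on the natural aging array. Summed over the list, the leukocyte signal was 15.4 times the 75th percentile on the APS plus metformin, 30.4 on the metformin, 18.4 on the aging diabetic and 25.2 on the natural aging array. For 14 macrophage genes the sums were 42.5, 66.0, 49.5 and 67.2 in the same order, and for 17 proliferation genes 13.5, 24.7, 12.1 and 16.3. The leukocyte and proliferation sums were both highest with metformin, as were most T and NK cell genes, and the macrophage sum was about as high in natural aging as with metformin. Between metformin and aging diabetic liver, 3 of 14 macrophage genes were higher and 2 lower (median 0.59), 12 of 16 proliferation genes were higher and none lower (2.30), 3 of 9 dendritic cell genes were higher and none lower (0.54), and 1 of 9 neutrophil genes was higher and 1 lower (0.34). Over all genes compared 11.9% were higher and 3.53% lower. The neutrophil share that was higher, 11.1%, was near that over all genes.

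Markers of other tissues also differed. Acinar genes of the exocrine pancreas summed to 5.80 times the 75th percentile on the APS plus metformin, 30.2 on the metformin, 13.3 on the aging diabetic and 122 on the natural aging array. Of 18 such genes, 17 were at least 2-fold lower in aging diabetic than in natural aging liver, 14 were higher with metformin than in aging diabetic liver and 16 were lower with APS plus metformin than with metformin. Over all genes compared these shares were 6.09%, 11.9% and 12.4%. Genes of lymph node stroma summed to 4.03, 4.15, 1.39 and 2.70 in the same order. This list shares Ccl19 and the chemokine Cxcl13 with the attractants and overlaps the further B cell list, so these lists are not separate readings. Cxcl13 stood at log2 0.55, 1.31, -0.89 and 0.17 in that order of arrays. In aging diabetic against natural aging liver, 3 of 6 stroma genes were lower and 1 higher (median -0.56), beside 6.09% and 8.20% of all genes. Against aging diabetic liver, 4 of 7 were higher with metformin (1.29) and 3 of 6 with APS plus metformin (0.89), and none was lower. Over all genes 11.9% and 4.38% were higher and 3.53% and 6.90% lower. Between APS plus metformin and metformin, 1 of 7 such genes was higher (Ccl19, 2.03-fold) and 1 lower (Pdpn, 2.79-fold), with a median of 0.11. Over all genes 2.37% were higher and 12.4% lower. Madcam1 was dim on all 4 arrays. Hepatocyte genes summed to 140 on the APS plus metformin, 112 on the metformin, 142 on the aging diabetic and 180 on the natural aging array. All 10 were lower in aging diabetic than in natural aging liver (median -0.37), each within 2-fold. All 10 were also lower with metformin than in aging diabetic liver (-0.33), again within 2-fold. These genes differed by at most 1.51 log2 in any pair, and Alb stood between 3.78 and 4.23. The part of leukocytes, proliferation and pancreatic or lymphoid tissue in the lymphocyte differences was not tested.

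**Figure D4:**
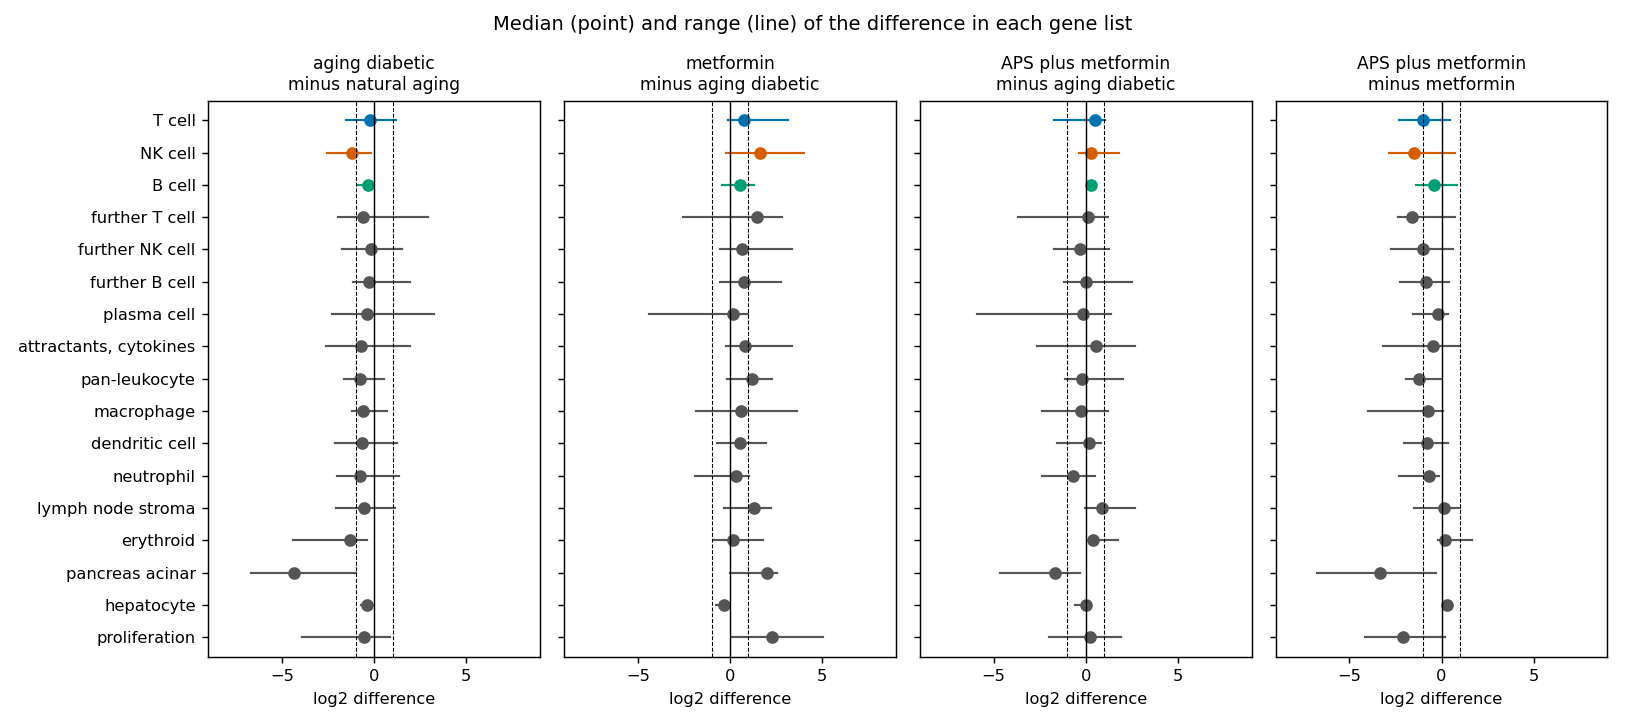
Median (point) and range (line) of the log2 difference in each gene list for 4 pairs of arrays, with the T, NK and B cell lists in colour and dashed lines at 2-fold. For metformin minus aging diabetic the T, NK, pan-leukocyte, pancreas acinar and proliferation medians are positive and the hepatocyte median is -0.33; for APS plus metformin minus metformin the hepatocyte median is 0.31 and the lymphocyte medians are negative.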

How the data were processed

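Liver RNA of 4 groups of mice was measured on 1 one-colour Agilent array each. Per the file headers, the deposited intensity values are red-channel (Cy5) signals that Agilent Feature Extraction 11.5.1.1 had background-subtracted and detrended within the array, with spot errors and other columns that are flags of 0 or 1; the submitters' processing notes give version 10.7. The authors' deposited series table holds log2 values normalized by a method not stated in the labels; its column medians were all 7.84, and each column correlated at 0.9988 to 0.9999 with its own array and at 0.974 or less with another.

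From the deposited intensity, log2 values minus each array's 75th percentile were computed with Python 3.11.15, numpy 2.4.6 and pandas 2.3.3. Outlier spots were left out (4825 of 56605 probes). Accessions were matched to RefSeq (GRCm38.p6): 33767 probes gave 23462 symbols and 22838 gave none. The brightest usable probe on average stood for a gene. Dim spots entered as bounds, taken at their own signal or, if higher, at the weakest spot that passed the background flag on the same array (log2 -4.84 for APS plus metformin, -4.95 for metformin, -4.75 for aging diabetic and -4.52 for natural aging), and a bound of the wrong sign was set to 0. No test was run, since 1 array per group leaves no degrees of freedom; the number of arrays limits the precision. The calling was tested on simulated data, with differences planted only in genes far above the background floor. Calls on dim spots and bounds were therefore not tested. Named genes are all 37 listed ones, and for other lists up to 4 per comparison by size of difference among genes measured on both arrays, besides Ptprc and Alb; Madcam1 was chosen after its values were seen. The genes and lists were chosen with earlier results of these data known. Alternatives were quantile normalization, normexp (limma 3.58.1, R 4.3.3, offset 50, on the median signal because the files hold no mean signal), the authors' series values, outlier spots kept, the mean over detected probes, and only genes past the background flag on both arrays.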

Additional observations from a re-analysis of the deposited data

How the results depend on the processing

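No paired analysis was possible because each group has 1 array. Of 72 counts over all listed genes under the 6 alternatives, 67 stayed within 1.5 times the reported count, and of 108 medians 92 moved by less than the spot error. After normexp correction, aging diabetic against natural aging had 0 genes higher and 5 lower (against 1 and 9) and an NK median of -0.89. The same correction gave an NK median of 1.17 for metformin against aging diabetic, 2 genes higher for APS plus metformin against aging diabetic, 0 lower for metformin against natural aging, and T and NK medians of -0.77 and -1.12 for APS plus metformin against metformin. With the mean over detected probes, the B median was -0.63 for aging diabetic against natural aging, 0.97 for metformin against aging diabetic, -0.86 for APS plus metformin against metformin, 0.22 for metformin against natural aging and -0.62 for APS plus metformin against natural aging. That setting also gave NK medians of 2.03 for metformin against aging diabetic and 0.68 for metformin against natural aging, a T median of -0.74 for APS plus metformin against metformin, and 1 gene lower for metformin against natural aging. There Eomes turned to 1.49, since its second probe enters. With only genes past the background flag on both arrays, the NK median was 0.85 for metformin against aging diabetic. The B median then turned to -0.17 there and to 0.24 for APS plus metformin against metformin, and was -0.49 for metformin against natural aging, because Ms4a1 drops out and 3 genes remain. Of 1092 single-gene values, 25 fell under 2-fold, 2 passed it, 2 more (Eomes) passed it with the other sign, 1 reversed and 1062 kept their call. The causes of the other moves were not tested. Signals near background limit Cd27, Xcl1, Ncr1, Gzmb and the B cell genes.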
